A study of Mus musculus with 96 samples.

Results

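The liver of mice fed a high-fat diet (HFD) was followed over 24 weeks by RNA sequencing of 24 livers, 4 at each of weeks 4, 8, 12, 16, 20 and 24, which are 24 of the 96 libraries of the series. All mice were male C57BL/6N, 4 weeks old when bought, kept at 22 °C with 12 h of light, and the labels give no genetic change or drug for any group. HFD was the Research Diets D12492 diet with 60% fat, and the mice on the control chow diet (CD) received LabDiet 5001 with 13.5% fat. Livers were chosen by the diet and week of their labels and by nothing measured in them, and the 24 CD livers of the same weeks serve below as the comparison. Each mouse gave 1 library at 1 week, so the course is built from different mice. A later week therefore also means an older mouse and another collection, and weeks on the diet, age and collection cannot be told apart within HFD liver.

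Hepatocytes, the main cells of the liver, take up fatty acids from the blood, burn them in mitochondria, export them in lipoproteins, or store them as triglyceride in lipid droplets, whose coat proteins set how large the droplets grow. They also make fatty acids and cholesterol themselves under the sterol regulatory element binding proteins, and secrete most plasma proteins, among them the acute phase proteins that interleukin 6 and related cytokines induce. Kupffer cells are the resident macrophages of the liver, and in fatty liver macrophages that carry genes of lipid handling, such as Trem2 and Gpnmb, are known to gather.

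Expression was deposited as FPKM, read fragments scaled by the length of the transcript and the total of the library, and analysed as log2(FPKM + 1). A trend is the slope of a straight line over the 6 weeks in the 24 livers, given as the change over the 20 weeks from week 4 to week 24 on the log2 scale with its SE, and the end points were compared as week 24 minus week 4. A gene is said to have risen or fallen where the p of limma, adjusted over all 10725 genes that reached 1 FPKM in 4 or more HFD livers, was below 0.05. With an added 1, the change of a gene of few FPKM is smaller than the ratio of its means. The labels name separate mice, so the spread between libraries includes that between animals. The FPKM values carry no read counts, so the depth behind a single value is unknown.

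The tissue fitted its label, with Alb between 16733.8 and 41063.9 FPKM in the 24 livers and all 9 hepatocyte markers above the filter. Of these markers, Apoa1, Ttr and Cps1 fell by 0.64, 0.77 and 0.69 over the 20 weeks and Fgb rose by 0.87, with a median change of -0.36 over the 9. The summed FPKM per library ran from 560016 to 661684, and 9634 to 10570 genes reached 1 FPKM. The median correlation of a library with the others of its week was between 0.971 and 0.988, and no pair held identical values. The insulin gene Ins2, which hepatocytes do not express, was found in some livers. Its FPKM were 30.22, 19.41, 20.15 and 24.13 at week 4, 71.36, 76.21, 0 and 0 at week 16 and 12.61, 4.18, 8.8 and 272.35 at week 24, it was listed at 0 in all 8 livers of weeks 8 and 20, and at week 12 it was 0.65 in 1 liver and 0 in the other 3. Islets of mice with the same numbers were collected in this study, and the part of this signal in other results was not tested. The library with 272.35 was that of mouse HFD617.

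Over the 24 weeks, 1694 of 10725 genes had a trend (15.8%), 915 rising (8.53%) and 779 falling (7.26%). Most changes were small, with a median size of 0.51 among the genes called, and 198 genes (1.85%) changed by at least 1 on the log2 scale, 145 upwards and 53 downwards. Between week 4 and week 24, 1091 genes rose (10.2%) and 1033 fell (9.63%), 2124 in all (19.8%). Both tests called 1244 genes, 625 higher and 619 lower, in the same direction in every case. The median change of all genes tested was 0.04. Without mouse HFD616 at week 24, 1229 genes had a trend and 1302 differed between week 4 and week 24, and without mouse HFD617 the counts were 2112 and 3007.

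The changes were unevenly spread over the course. Of consecutive weeks, week 4 to week 8 changed 2360 genes (22.0%), 11.6% of all upwards and 10.4% downwards, and week 16 to week 20 changed 1121 (10.5%), 6.13% upwards and 4.33% downwards, whereas 16 genes changed from week 8 to week 12 (0.149%), 130 from week 12 to week 16 (1.21%) and 9 from week 20 to week 24 (0.0839%). In CD liver the same steps changed 3526 genes (34.0%) from week 4 to 8 and 1470 (14.2%) from week 16 to 20, against 371 (3.57%), 298 (2.87%) and 48 (0.462%) at the other steps. Among the 10320 genes tested in both diets, 2305 changed from week 4 to week 8 on HFD and 3511 on CD. Of these, 1080 did so in the same direction and 20 in opposite directions, which is 46.9% of the HFD genes and 30.8% of the CD genes in the same direction. From week 16 to week 20, 47.2% of 1095 HFD genes and 35.3% of 1463 CD genes changed in the same direction in the other diet, and none changed in opposite directions. Leaving out mouse HFD517 at week 20 brought the count for week 16 to 20 from 1121 to 397, leaving out HFD414 or HFD418 at week 16 brought it to 624 or 678, and without HFD211 at week 8 the step from week 4 to 8 changed 1425 genes.

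**Figure D1:**
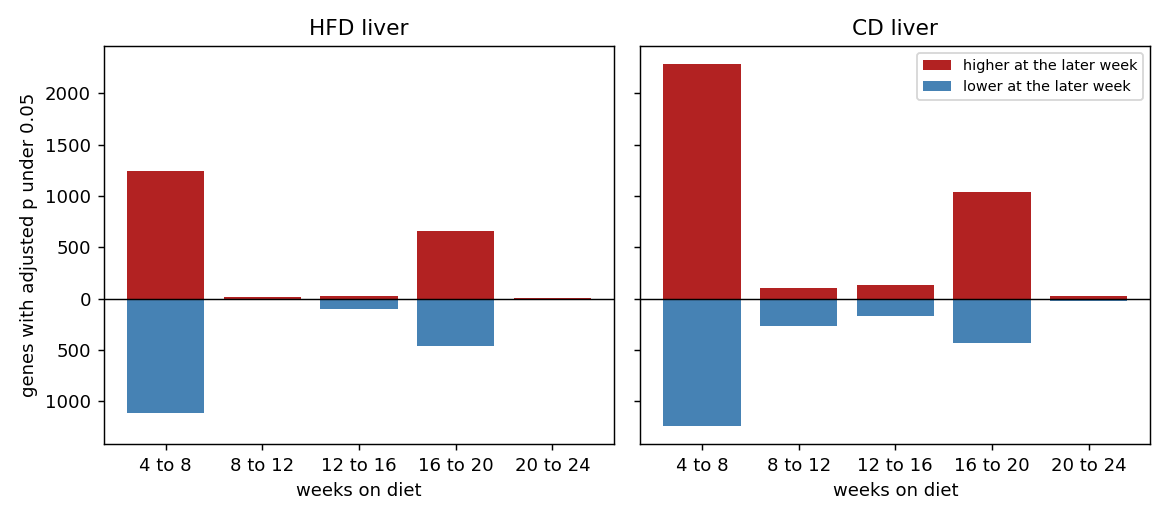
Number of genes that rose (bars above zero) and fell (bars below zero) between consecutive weeks, in HFD and CD liver, by limma at an adjusted p under 0.05. The steps from week 4 to 8 and from week 16 to 20 hold 2360 and 1121 HFD genes, and the other 3 steps hold 16, 130 and 9.

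The first principal component of the 24 HFD livers held 23.6% of the variance and set week 4, between -36.8 and -25.3, apart from all later weeks, between -12.8 and 16.1. The second component held 18.8% and ran from -18.5 to 2.59 in weeks 4 to 16 and from 3.01 to 36.4 in weeks 20 and 24, so that no library of weeks 20 and 24 lay among the earlier ones.

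**Figure D2:**
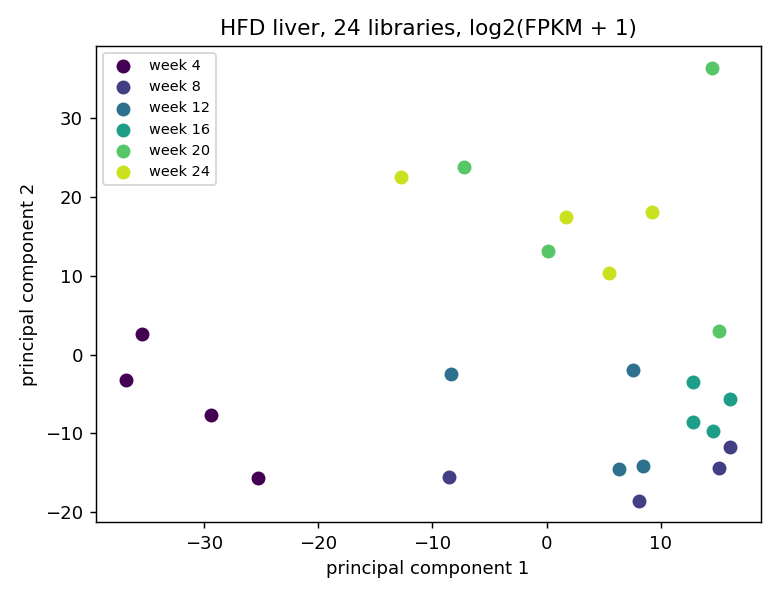
First (x axis) and second (y axis) principal component of log2(FPKM + 1) in the 24 HFD livers, 1 point per library, coloured by week. Week 4 stands apart on the first component, at -25.3 or below, and weeks 20 and 24 stand at 3.01 or above on the second.

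A departure from a straight line was found in 2863 genes (26.7%). The 5 genes with the smallest p for it were Rpl34-ps1, Gm4184, Tmem238, Rpl37rt and Zfp771, and their levels differed between single weeks or runs of weeks. Gm4184 had 0, 0, 1.7 and 0 FPKM at week 16, 25.04, 39.57, 38.98 and 35.59 at week 12 and 15.61, 18.03, 21 and 25.63 at week 20. CD liver held the same order for Gm4184, with at most 0.88 FPKM at week 16 and between 16.39 and 22.33 at week 12. Rpl34-ps1 and Rpl37rt are copies of ribosomal protein genes, whose reads can be shared with the parent genes, so their values are uncertain. Tmem238, a transmembrane protein gene, had 31.29, 27.77, 26.26 and 27.97 FPKM at week 4, between 9.34 and 15.17 in the 12 livers of weeks 8 to 16 and between 21 and 33.9 in the 8 livers of weeks 20 and 24. Zfp771, a zinc finger gene, had between 12.44 and 17.14 FPKM at week 4, between 4.54 and 6.32 at weeks 8 to 16 and between 7.42 and 14.09 at weeks 20 and 24. The CD levels of Zfp771 moved alike, from 12.59 to 24.53 at week 4 to between 4.57 and 9.45 at weeks 8 to 16. Of the 1694 genes with a trend, 357 (21.1%) also departed from a straight line. The mean FPKM rose at every one of the 5 steps in 47 of the rising genes and fell at every step in 26 of the falling genes.

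Of the 10 genes with the largest differences upwards between week 4 and week 24 among those called by both tests, 4 were genes of fat uptake and lipid droplets, namely Cidea, Cidec, Cd36 and Plin4. Cidea, whose protein fuses lipid droplets and which is best known from brown fat, rose by 5.32 ± 0.72 over the 20 weeks (adjusted p = 0.000101). It had 0.04, 0, 0 and 0.04 FPKM at week 4, then 33.97, 5.42, 5.72 and 0.68 at week 8, 28.64, 28.45, 12.95 and 23.73 at week 12 and 59.59, 60.6, 46.07 and 35.67 at week 16. At week 20 the values of Cidea were 18.58, 43.33, 35.7 and 20.04 FPKM, and at week 24 they were 74.38, 36.51, 77.89 and 86.28. Every liver from week 8 on was above all 4 of week 4, and the spread within week 8 covered the range from near 0 to that of week 12. Cidec, which makes droplets large and holds 1 fat store per cell in white fat, had 0.91, 0.68, 1.02 and 0.62 FPKM at week 4, 47.83, 35.81, 40.74 and 3.66 at week 8 and 35.35, 22.9, 50.53 and 57.13 at week 24. Cidec rose by 3.50 ± 0.80 (adjusted p = 0.00514), with 3.76 of its difference at week 24, 4.48, already present from week 4 to week 8. The droplet coat gene Plin4 had 0.86, 0.85, 1.37 and 0.68 FPKM at week 4, 9.79, 16.79, 10.86 and 7.16 at week 8 and 15.41, 11.42, 18.86 and 18.13 at week 24, and rose by 2.46 ± 0.46 (adjusted p = 0.00141).

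Cd36 (chr5:17781690-17888959, minus strand, GRCm38), the fatty acid receptor at the cell surface, had 5.04, 4.94, 7.17 and 4.97 FPKM at week 4. It had 95.71, 91.37, 83.97 and 32.77 at week 8, 76.21, 63.75, 32.06 and 74.89 at week 12, 85.72, 89.52, 73.97 and 84.2 at week 16, 89.73, 58.15, 87.62 and 38.69 at week 20 and 49.05, 70.03, 78.96 and 38.56 at week 24. The 20 livers from week 8 on overlapped with each other and lay above all 4 livers of week 4. The trend of Cd36, 2.28 ± 0.66 (adjusted p = 0.0212), and its difference between week 24 and week 4, 3.16 ± 0.33 (adjusted p = 4.27e-06), both rest on week 4. Without week 4 the change of Cd36 was -0.22 (adjusted p = 0.73), and with week 8 as the start the difference at week 24 was -0.30 (adjusted p = 0.583). Leaving out any 1 of the 4 livers of week 4 also ended the call for the trend of Cd36, with changes between 1.91 and 2.01 and adjusted p-values between 0.0564 and 0.0599. Pparg, the nuclear receptor that drives fat storage and induces Cd36, Cidea and Cidec in fat cells, went from 2.16, 2.05, 2.43 and 1.71 FPKM at week 4 to 13.63, 9.19, 10.52 and 4.35 at week 8 and 7.29, 8.18, 9.22 and 8.7 at week 24. Pparg rose by 1.23 ± 0.36 (adjusted p = 0.0233).

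The whole list of fat uptake and lipid droplet genes had 20 members, all above the filter. Of these, 8 rose with the weeks (Cd36, Pparg, Plin3, Plin4, Cidea, Cidec, Lpl and Vldlr), 2 fell and 10 did not pass, with a median change of 0.52. At week 24 against week 4, 10 were higher and 1 lower, and from week 4 to week 8, 12 rose. Among all genes 8.53% rose and 7.26% fell with the weeks. At week 24 10.2% were higher and 9.63% lower, and from week 4 to week 8 11.6% rose. In CD liver 3 of the 18 members also above the filter there rose and 1 fell, where 7.64% and 7.22% of all genes did. The median change over these 18 was 0.50. From week 4 to week 24 the median difference was 0.73 on CD and 0.76 over the 20 on HFD. The members that fell were Fabp1, the main fatty acid binding protein of the hepatocyte cytosol, by 1.16 on the log2 scale (adjusted p = 0.0141), and Cideb, which serves lipoprotein export, by 0.37 (adjusted p = 0.0295). Fabp1 had 5533.34, 6364.51, 6232.23 and 3546.97 FPKM at week 4, 10300.2, 11256.6, 10575.1 and 8900.45 at week 8 and 3604.42, 1482.71, 3688.85 and 3970.33 at week 24. Week 8 was above all other weeks for Fabp1, and the decline ran from there. The defining fat cell genes Adipoq and Plin1 were at or below 0.07 and 0.06 FPKM in all 24 livers, and the summed FPKM of the 5 fat cell markers was 0.02 to 0.31 at week 4 and 0.79 to 28.84 from week 8 on, with Cfd, the gene of adipsin, the one marker above the filter. The part of these cells in the result was not tested. Without week 4, 3 of the 20 rose and 3 fell, and leaving out mouse HFD113 or HFD114 of week 4 brought the number of members with a trend from 10 to 6.

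**Figure D3:**
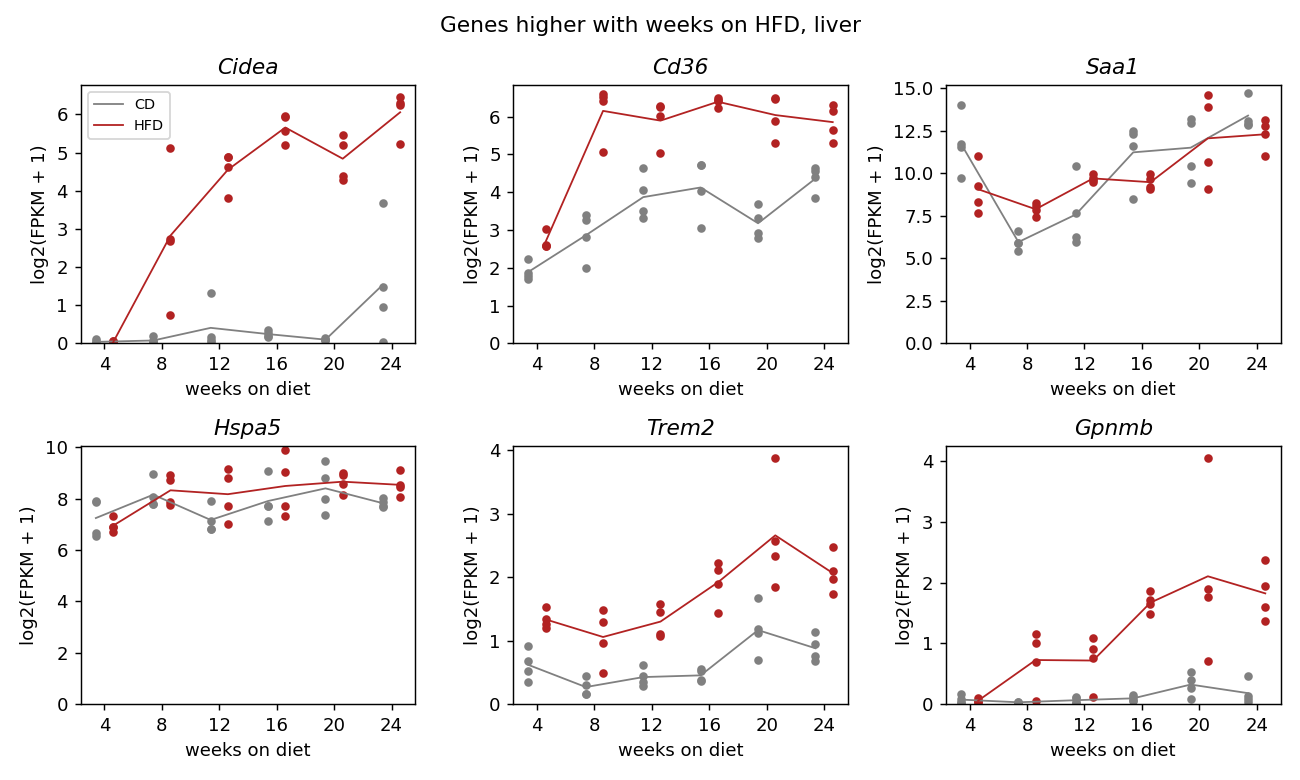
FPKM of 6 rising genes by week, on a log axis of FPKM + 1, in HFD (red) and CD (grey) liver, with 1 point per library and a line through the group means of log2(FPKM + 1). Cidea and Cd36 leave week 4 levels at week 8 on HFD, Saa1 on HFD is highest in 2 livers of week 20, and Trem2 and Gpnmb are highest at week 20 in 1 HFD liver, with 13.75 and 15.59 FPKM. Cd36 is also higher at week 24 than at week 4 on CD, with means of 20.05 and 2.76 FPKM.

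Fatty acids for storage can also be made in the liver itself. Of 18 genes of de novo lipogenesis above the filter, 7 fell, 11 did not pass and the median change was -0.69. Of all genes 7.26% fell. At week 24 against week 4, 3 of the 18 were lower and 1 was higher, against 9.63% and 10.2% of all genes. With week 8 as the start none of the 18 was called, whereas without week 4 the trend was falling in 8. Acss2, which activates acetate, had 38.39, 37.39, 54.07 and 45.89 FPKM at week 4 and 20.06, 24.11, 23.5 and 26.86 at week 24, without overlap, and fell by 0.96 ± 0.19 (adjusted p = 0.00141). Srebf1, which encodes the factor that switches on lipogenesis, had 75.51, 179.82, 205.11 and 72.58 FPKM at week 4 and 44.6, 17.17, 34.54 and 49.22 at week 24. It fell by 1.55 ± 0.39 (adjusted p = 0.0095). The citrate carrier Slc25a1 fell by 0.75 (adjusted p = 0.00239) and Acly, which cleaves citrate into acetyl-CoA, by 1.04 (adjusted p = 0.0124). Fasn, the fatty acid synthase, fell by 1.64 ± 0.51 (adjusted p = 0.0312), with 26.9, 47.6, 126.22 and 10.07 FPKM at week 4 and 10.68, 13.69, 10.92 and 17.42 at week 24, so that the weeks overlapped in 1 liver. Elovl6 and Thrsp also fell. In CD liver, where 7.22% of all genes fell and 7.64% rose, 6 of the 18 fell, with a median change of -0.66. Leaving out mouse HFD114, HFD611 or HFD616 brought the number of members with a trend on HFD from 7 to 4.

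Of 21 genes of cholesterol synthesis, 7 fell (Nsdhl, Pmvk, Fdps, Idi1, Msmo1, Dhcr7 and Cyp51), 14 did not pass and the median change was -0.80. Of all genes 7.26% fell. At week 24 against week 4, 2 of the 21 were lower, with a median difference of -0.88, where 9.63% of all genes were lower. With 1 liver left out, this end point count ran from 1 to 8. Nsdhl, a late enzyme of the pathway, had 26.09, 17.21, 26.65 and 20.84 FPKM at week 4, 18.29, 61.2, 17.83 and 5.05 at week 8, 13.86, 4.57, 5.56 and 4.35 at week 20 and 4.09, 7.79, 4.37 and 4.18 at week 24. All 4 livers of week 24 were below all 4 of week 4, and Nsdhl fell by 2.11 ± 0.37 (adjusted p = 0.000833). Mouse HFD212 of week 8 was the highest of all 24 livers for Nsdhl, and also for Idi1 with 64.49 FPKM and Fdps with 322.36. Tm7sf2 (chr19:6062821-6067850, minus strand, GRCm38), a sterol reductase gene that was not on this list, had a falling mean at every step. Its FPKM were 112.03, 67.89, 83.8 and 70.18 at week 4, 42.39, 82.48, 50.96 and 28.94 at week 8, 42.68, 31.11, 28.7 and 31.73 at week 12, 20.75, 31.74, 23.63 and 18.7 at week 16, 26.38, 18.92, 15.19 and 27.93 at week 20 and 15.89, 11.41, 13.16 and 28.01 at week 24. The mean of Tm7sf2 went from 83.5 ± 20.3 to 17.1 ± 7.49 FPKM (SD, n = 4), and it fell by 2.17 ± 0.24 over the 20 weeks (adjusted p = 5.33e-06). In CD liver none of the 21 cholesterol genes had a trend by limma, with a median change of -0.29. None of the 21 was called for a difference between the diets in slope or in the change from week 4 to week 24. From week 16 to week 20 the median difference of the 21 genes was 1.39 on CD and 0.02 on HFD. Without mouse HFD217 of week 8 or HFD511 of week 20, 14 or 12 members fell on HFD, and without week 4, 2 did.

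Most acute phase genes rose, late in the course and in both diets. Of the 23 members, 20 rose with the weeks, 1 fell and 2 (Saa4 and Hamp) did not pass, with a median change of 1.43. In CD liver 16 rose, 1 fell and the median was 1.26. Among all genes 8.53% rose and 7.26% fell on HFD, and 7.64% rose and 7.22% fell on CD. Saa1 and Saa2, the acute phase serum amyloid A genes, have gene models that overlap (chr7:46740497-46754264 and chr7:46686087-46754314, GRCm38) and near-identical products, so the split of reads between them is uncertain. Saa1 had 319.54, 2104.9, 199.38 and 605.08 FPKM at week 4, between 171.61 and 300.23 at week 8, between 724.53 and 989.49 at week 12 and between 538.07 and 990.47 at week 16. At week 20 Saa1 had 533.18, 1647.35, 15105.1 and 24589 FPKM and at week 24 it had 6921.05, 2035.38, 8839.25 and 5102.36. Mice HFD517 and HFD518 of week 20 were thus above every other HFD liver, while the other 2 livers of that week lay in the range of the earlier weeks. Saa1 rose by 4.06 ± 0.83 (adjusted p = 0.00256) and Saa2 by 5.04 ± 0.98 (adjusted p = 0.00171).

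Lcn2, the iron-trapping lipocalin, followed the same livers, with 40.03, 101.39, 15.78 and 67.62 FPKM at week 4, 264.61, 281.84, 3035.43 and 3157.61 at week 20 and 913.49, 922.31, 1108.51 and 866.97 at week 24. It rose by 4.80 ± 0.62 (adjusted p = 4.97e-05). Apcs, the gene of serum amyloid P component, rose by 2.94 ± 0.38 (adjusted p = 4.33e-05), from between 33.15 and 70.26 FPKM at week 4 to between 243.94 and 654.17 at week 24. Haptoglobin (Hp), which binds free haemoglobin, rose by 1.43 ± 0.25 (adjusted p = 0.000659), and its livers of week 24, with 8097.58, 8133.68, 8244.19 and 8342.5 FPKM, were closer together than those of any other HFD week. Serpina3n, a protease inhibitor, rose by 1.59 (adjusted p = 0.000669). The member that fell was Hamp2, a relative of the iron hormone hepcidin, with 115.66, 11.6, 203.07 and 9.65 FPKM at week 4, 0.19, 6.89, 2.19 and 2.98 at week 20 and 1.87, 2.27, 4.09 and 3.72 at week 24. It fell by 4.10 ± 0.98 (adjusted p = 0.00698), and its fall lay between week 16, where the lowest liver had 28.34 FPKM, and week 20. At the end points 18 members were higher and 1 lower, where 10.2% and 9.63% of all genes were. From week 16 to week 20, 7 rose and 1 fell, where 6.13% and 4.33% of all genes did. From week 4 to week 8, 2 (Itih3 and Itih4) fell, near the share of all genes that fell at this step, 10.4%. CD liver had its own high values at week 4, with 16209.4, 3032.15, 3310.17 and 829.12 FPKM of Saa1. Without week 24 the trend was called in 13 members, and without mouse HFD114 at week 4, which had the lowest Saa1 and Lcn2 of that week, 11 members differed between week 24 and week 4.

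Of 22 genes of the endoplasmic reticulum (ER) and integrated stress responses, 9 rose on HFD and 13 did not pass, where 8.53% of all genes rose. The median change of the 22 was 0.87, with all 22 estimates above 0. The ER stress response raises folding capacity when unfolded proteins accumulate in the ER, through the sensors PERK, IRE1 and ATF6, and the last of these with NF-Y acts at the ER stress response element (ERSE). Hspa5, the main ER chaperone, had between 101.65 and 159.15 FPKM at week 4, 426.54, 485.54, 214.52 and 232.39 at week 8, 129.35, 563.73, 450.05 and 206.06 at week 12 and 526.54, 157.48, 948 and 209.32 at week 16. At week 20 Hspa5 had 377.25, 280.2, 514.59 and 482.27 FPKM and at week 24 it had 344.84, 365.13, 555.67 and 266.57. The 8 livers of weeks 20 and 24 were all above week 4, and at weeks 12 and 16 single mice of the same week differed several fold. Hspa5 rose by 1.32 ± 0.43 (adjusted p = 0.0383).

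Eif2ak3, which encodes PERK, rose by 0.92 ± 0.18 (adjusted p = 0.00145), from 2.05, 2.51, 2.02 and 2.38 FPKM at week 4 to 4.85, 5.04, 6.01 and 5.04 at week 24, and all 8 livers of weeks 20 and 24 lay above those of week 4. The cochaperone gene Dnajb9, a target of IRE1 signalling, rose by 1.40 ± 0.30 (adjusted p = 0.0033), from 12.03, 14.05, 17.68 and 14.06 FPKM at week 4 to 46.53, 40.08, 66.44 and 41.18 at week 24. Ddit3, the death-associated factor CHOP, rose by 1.16 ± 0.30 (adjusted p = 0.0119). Fgf21, a liver hormone that the integrated stress response and PPAR alpha induce, had 4.24, 1.01, 2.17 and 0.32 FPKM at week 4 and 17.31, 18.05, 19.76 and 7.22 at week 24, and rose by 2.02 ± 0.57 (adjusted p = 0.0182). Pdia4, Dnajc3, Creld2 and Manf, which serve folding in the ER, were the other members that rose. From week 4 to week 8, 7 members were higher, where 11.6% of all genes rose. Without week 4, 1 of the 22 had a trend, and without mouse HFD112, HFD114 or HFD517, 5 did. In CD liver 1 member rose, where 7.64% of all genes did, and the median change was 0.27. None of the 22 was called for a difference between the diets in the change from week 4 to week 24.

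The promoters of 3 of these rising genes hold the letters of the ERSE, CCAAT and CCACG with 9 bases of any kind between them, searched on both strands within 250 bases before and 50 after the start of each RefSeq gene of GRCm38.p6. The 250 bases before the start are shown for Dnajc3 (chr14:118937682-118937931), Hspa5 (chr2:34771840-34772089) and Creld2 (chr15:88819396-88819645), all on the plus strand, because they let the element be seen in its place. Capitals mark the match, which lies on the opposite strand in Creld2.
Dnajc3: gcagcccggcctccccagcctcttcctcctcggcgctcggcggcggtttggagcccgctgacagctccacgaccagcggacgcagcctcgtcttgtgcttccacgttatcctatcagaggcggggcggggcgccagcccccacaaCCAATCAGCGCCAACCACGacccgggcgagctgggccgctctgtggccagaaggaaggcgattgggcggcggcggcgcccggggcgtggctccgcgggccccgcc
Hspa5: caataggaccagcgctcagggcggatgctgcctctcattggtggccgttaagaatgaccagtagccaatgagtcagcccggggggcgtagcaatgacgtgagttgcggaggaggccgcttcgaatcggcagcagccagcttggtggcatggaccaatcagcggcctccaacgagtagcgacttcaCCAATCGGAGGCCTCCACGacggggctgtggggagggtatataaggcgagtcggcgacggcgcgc
Creld2: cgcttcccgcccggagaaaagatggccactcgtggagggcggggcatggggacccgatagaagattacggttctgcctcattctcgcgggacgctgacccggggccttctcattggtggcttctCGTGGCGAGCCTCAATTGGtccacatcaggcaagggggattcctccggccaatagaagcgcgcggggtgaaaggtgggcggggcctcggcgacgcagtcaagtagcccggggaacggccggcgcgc
The match begins 105 bases before the start in Dnajc3, 65 in Hspa5 and 126 in Creld2. Of the 21 listed genes with a promoter in the table, 6 held the letters. The other 3, Calr, Hsp90b1 and Pdia6, did not pass the test for a trend, with adjusted p-values of 0.084, 0.19 and 0.415. Of all 32851 promoters 39 held the letters (0.119%), and of 8655 genes tested here 16 did (0.185%). A match of letters is a description of the sequence and was not tested for binding. The motifs searched for the other lists were found in 1 member each: the sterol regulatory element TCACNCCAC in Hmgcs1 (1 of 14 cholesterol genes, 1.24% of all promoters), the kappaB site in Serpina3n (1 of 20 acute phase genes, 1.63%) and the DR1 repeat bound by PPAR receptors in Fabp1 (1 of 17 fat uptake genes, 0.381%).

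Most genes of lipid-associated macrophages rose in HFD liver. In bulk tissue, a change in the number of cells of a type and a change in RNA per cell cannot be told apart. Of 14 members above the filter, 10 rose, 4 did not pass and the median change was 1.23, where 8.53% of all genes rose. No member was called at any of the 5 single steps, and at the end points 7 were higher, against 10.2% of all genes. Gpnmb, a glycoprotein of lysosomes, had 0.04, 0.02, 0.07 and 0.04 FPKM at week 4, 1.01, 0.62, 1.22 and 0.04 at week 8, 1.12, 0.69, 0.09 and 0.88 at week 12 and 1.79, 2.62, 2.12 and 2.27 at week 16. At week 20 Gpnmb had 2.74, 2.39, 15.59 and 0.63 FPKM and at week 24 it had 1.59, 2.04, 4.17 and 2.86, all 8 above the livers of week 4. Gpnmb rose by 1.99 ± 0.37 (adjusted p = 0.00136). Trem2, the lipid receptor of these cells, had 1.89, 1.41, 1.29 and 1.54 FPKM at week 4, between 0.4 and 2 at weeks 8 and 12, 1.71, 3.33, 2.71 and 3.68 at week 16, 4.02, 4.93, 13.75 and 2.61 at week 20 and 2.91, 2.32, 4.53 and 3.26 at week 24. It rose by 1.29 ± 0.30 (adjusted p = 0.00534) and was the highest in mouse HFD517 of week 20, as were Gpnmb, Lgals3 with 43.47 FPKM and Cd63 with 63. The actin-capping gene Capg had the smallest p of the list, with 1.48, 1.29, 0.66 and 1.24 FPKM at week 4 and 4.21, 2.48, 5.56 and 4.88 at week 24, a rise of 1.53 ± 0.27 (adjusted p = 0.000785). Cd9, Lpl, Cd63, Mmp12, Itgax, Lgals3 and Atp6v0d2 were the others that rose. No library left out alone brought the trend below 9 of 14, whereas without week 4 it was called in 5, and without mouse HFD616 the end points differed in 4 members. In CD liver 2 of the 11 members also above the filter there rose, where 7.64% of all genes did, with a median change of 0.51 over these 11. Over the same weeks on HFD 3 of the 9 hepatocyte markers fell and 1 rose, the same counts as in CD liver. Of the 2 neutrophil markers above the filter 1 rose on HFD, S100a9 by 1.26 (adjusted p = 0.0156). The summed FPKM of the 7 neutrophil markers was 2.58 to 3.84 at week 4, 2.9 to 30.11 at week 20 and 2.99 to 8.82 at week 24, and S100a9 was also highest in mouse HFD517, with 14.44 FPKM. The part of these cells in the result was not tested.

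Genes common to Kupffer cells and other macrophages had a mixed course. Of 16 members 2 rose, Lyz2 by 1.33 ± 0.31 (adjusted p = 0.00519) and Cd68 by 0.93 ± 0.31 (adjusted p = 0.0432), where 8.53% of all genes rose. The median change was 0.58, with 12 of the 16 estimates above 0. Each of 13 livers, left out alone, brought the number of members with a trend to 1, and without mouse HFD614 it was 4. In CD liver 9 of the 16 rose, where 7.64% of all genes did, and the median change was 0.64, close to that on HFD. From week 4 to week 8, 5 fell (Clec4f, Csf1r, C1qa, C1qb and C1qc), and from week 16 to week 20, 4 rose. Among all genes 10.4% fell at the first of these steps and 6.13% rose at the second. The summed FPKM of the 17 macrophage genes was between 216.7 and 363.5 at week 4, between 131.5 and 231.1 at week 8, between 388.2 and 597.1 at week 20 and between 198.9 and 427.2 at week 24. Clec4f, a gene of Kupffer cells alone, had 33.82, 30.53, 24.7 and 36.89 FPKM at week 4, between 10.6 and 23.15 at weeks 8 and 16 and 25.27, 14.36, 31.11 and 19.46 at week 24, and had no trend (adjusted p = 0.842). At weeks 12 and 20 the mean of Clec4f was 25.5 ± 8.3 and 30.6 ± 3.7 FPKM (SD), against 31.5 ± 5.2 at week 4, so it went down and up between weeks. Genes of T, B and natural killer cells summed to between 0.99 and 10.16 FPKM per liver, and none of the 18 passed the filter. In the list of chemokines, cytokines and adhesion molecules, 5 of 11 rose (Icam1, Cxcl14, Cxcl1, Vcam1 and Ccl2), against 8.53% of all genes. Icam1, by which leukocytes adhere to endothelium, had 3.66, 5.6, 3.92 and 5.49 FPKM at week 4, 10.16, 15.26, 22.74 and 15.14 at week 20 and 10.87, 9.46, 9.76 and 11.42 at week 24, without overlap between week 4 and either later week, and rose by 1.47 ± 0.22 (adjusted p = 0.000169). Of 6 genes of antigen presentation by class II molecules, 3 rose (Ctss, H2-Ab1 and H2-DMb1), and 13 of the 24 libraries, each left out alone, brought the count to 1.

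Of 27 matrix and stellate cell genes above the filter, 11 rose with the weeks, 16 did not pass and the median change was 0.54. At week 24 against week 4, 3 were higher, which were Col4a1, Fn1 and Timp1. The end point count was near the share of all genes higher at week 24, 10.2%, while 8.53% of all genes rose with the weeks. Col4a1, a chain of basement membrane collagen, had 5.75, 4.41, 4.92 and 4.63 FPKM at week 4, 11.49, 11.34, 20.07 and 9.46 at week 20 and 6.97, 10.92, 10.12 and 9.47 at week 24, and rose by 1.02 ± 0.21 (adjusted p = 0.00197). Fibronectin (Fn1) rose by 0.79 ± 0.17 (adjusted p = 0.00278), and Timp1, an inhibitor of matrix proteases, by 1.01 (adjusted p = 0.0129). Col1a1, the fibrillar collagen of scars, had 2.46, 1.94, 2.15 and 1.6 FPKM at week 4, 14.64, 6.49, 35 and 5.3 at week 20 and 4.01, 4.12, 8.56 and 11.12 at week 24, and rose by 1.37 ± 0.46 (adjusted p = 0.0447). Each of 12 livers, left out alone, brought the count to 6 or 7 members. In CD liver 5 of the 21 members also above the filter there rose, where 7.64% of all genes did, and the median change over these 21 was 0.32.

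Of 30 subunits of the respiratory chain, 17 fell and 13 did not pass, where 7.26% of all genes fell. All 30 had estimates below 0, from -0.69 to -0.03 with a median of -0.42. Of the 9 hepatocyte markers 3 fell and 1 rose, with a median change of -0.36, and in CD liver the counts were the same. The part of hepatocyte content in this result was not tested. Cox6b1, a subunit of cytochrome c oxidase, had 530.53, 485.25, 478.31 and 451.42 FPKM at week 4, 409.6, 510.17, 521.49 and 515.55 at week 16, 371.75, 369.8, 309.85 and 326.28 at week 20 and 281.04, 265.78, 274.7 and 389.24 at week 24. The 4 livers of week 20 lay below all 4 of week 16, and Cox6b1 fell by 0.69 ± 0.13 (adjusted p = 0.00139). Atp5h, a subunit of the ATP synthase, fell by 0.65 ± 0.11 (adjusted p = 0.000746) and Ndufb2, of complex I, by 0.55 ± 0.10 (adjusted p = 0.000679). Of the 30, 13 fell from week 16 to week 20, whereas from week 4 to week 8, 7 rose and 2 fell. Among all genes 4.33% fell at the first of these steps, and 11.6% rose and 10.4% fell at the second. In CD liver 20 of the 30 fell, where 7.22% of all genes did, with a median change of -0.41. Without mouse HFD611 or HFD616, 11 fell on HFD.

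The genes of fatty acid oxidation and ketone synthesis differed between the start and the end but had few trends. Of 22 members 11 were higher at week 24 than at week 4, and 12 rose from week 4 to week 8, against 10.2% and 11.6% of all genes. A trend was found in 2, near the 8.53% of all genes that rose. These were the thioesterase Acot2, by 1.70 ± 0.47 (adjusted p = 0.0169), and Vnn1, a target of PPAR alpha, by 1.53 ± 0.48 (adjusted p = 0.0318). Acot2 had 0.93, 1.17, 2.25 and 2.25 FPKM at week 4, 10.73, 17.69, 13.14 and 5.85 at week 8 and 5.68, 9.95, 15.75 and 12.49 at week 24, and no later liver was as low as those of week 4. With week 8 as the start, 1 member of the list differed at week 24, and it was lower. Without mouse HFD118 or HFD616, 7 members differed between week 24 and week 4, and each of 5 livers, left out alone, brought the trend count from 2 to 1. In CD liver 11 of the 22 had a rising trend, against 7.64% of all genes.

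**Figure D4:**
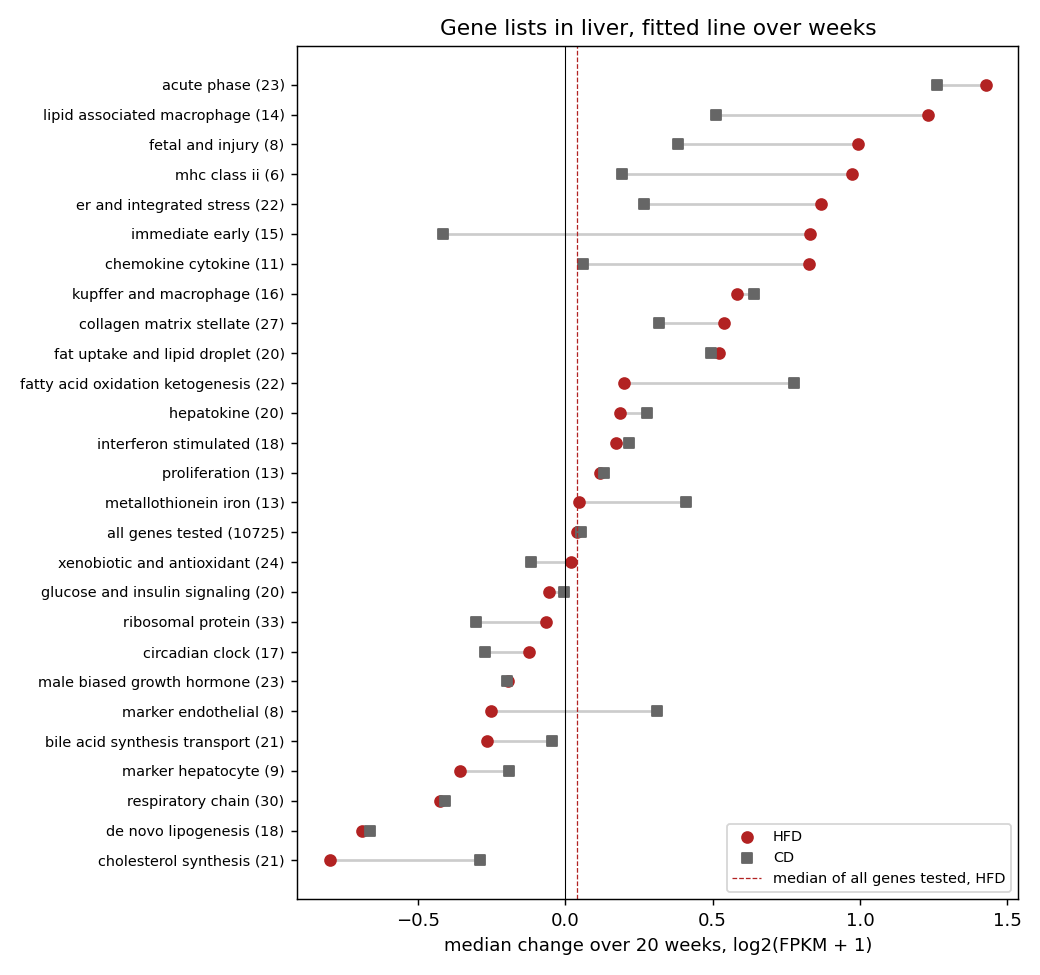
Median change over 20 weeks on the log2 scale for the gene lists with at least 6 members tested in both diets, in HFD (red) and CD (grey) liver, with a dashed line at the median of all genes tested on HFD, 0.04. The acute phase list (1.43 and 1.26) and the respiratory chain (-0.42 and -0.41) lie close in both diets, and the ER stress list (0.87 and 0.27) and the lipid-associated macrophage list (1.23 and 0.51) lie higher on HFD, a difference that was not tested for whole lists. A CD median covers only the members also above the filter on CD. These were all 22 in the ER stress list, 11 of 14 in the lipid-associated macrophage list and 21 of 27 in the matrix list, so the last 2 lists compare unlike sets of genes.

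Several of the genes with the largest falls had courses of their own. C1s2, a copy of the complement protease C1s (chr6:124530344-124641894, minus strand, GRCm38), had 68.04, 92.17, 93.84 and 65.32 FPKM at week 4, stayed between 36.62 and 149.64 through week 16, had 35.92, 44.8, 30.73 and 107.58 at week 20 and 0.01, 4.81, 0 and 0 at week 24. It fell by 4.27 ± 1.02 over the 20 weeks (adjusted p = 0.00722) and by 4.98 on the log2 scale from week 20 to week 24, and without week 24 it had no trend call. The gene model of C1s2 overlaps those of C1s1, C1ra and C1rb, and the related C1s1, chosen after its values were seen, rose by 0.37 (adjusted p = 0.0256), so how reads were split between the copies is uncertain. In CD liver at week 24 C1s2 had 30.31, 48.88, 4.48 and 37.2 FPKM. Nat6, an acetyltransferase gene, fell by 1.92 ± 0.43 (adjusted p = 0.00419), but was low at week 16 as well as at week 24. It had 2.6, 3.6, 3.68 and 4.93 FPKM at week 16, against 9.18 to 14.6 at week 12 and 8.8 to 16.54 at week 20, and Nat6 in CD liver had 1.29 to 3.99 at week 16. Serpina6, the corticosteroid binding globulin of plasma, had 170.71, 200.96, 270.32 and 198.69 FPKM at week 4 and 37.67, 23.56, 63.85 and 87.19 at week 24, while no liver of an earlier week was below 61.44, and fell by 1.62 ± 0.40 (adjusted p = 0.00771).

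Tff3, Moxd1, Cela1 and Gapdh-ps15 fell from week 4 to week 8 and then stayed low. Cela1 was also on the list of 9 pancreas markers, of which Ins1 and Ins2 fell with it at this step. The summed FPKM of the pancreas markers was 83.99 to 99.76 at week 4, 12.78 to 43.7 at week 8 and 14.98 to 416.1 at week 24. This sum includes Cela1 itself, with a mean of 61.86 FPKM at week 4 and 14.32 at week 24. Ctrb1 and Cpa1, also on this list, had means of 0.37 ± 0.55 and 0.09 ± 0.12 FPKM (SD) at week 4. At week 24 their means were 5.98 ± 10.08 and 1.295 ± 1.796. The part of pancreas signal in the fall of Tff3, Moxd1, Cela1 and Gapdh-ps15 was not tested. Tff3, a trefoil peptide gene, had 14.47, 19.03, 17.69 and 22.94 FPKM at week 4 and 10.3, 2.71, 3.33 and 0.59 at week 8, and stayed at or below 4.84 from week 12 on. Moxd1, a monooxygenase gene, had 5.7, 21.86, 2.51 and 12.65 FPKM at week 4 and at most 1.11 in the 20 later livers, 10 of which were listed at 0. The change of Moxd1 from week 8 to week 24 was 0.32 (adjusted p = 0.586), so the call of a fall rests on week 4, and in CD liver Moxd1 ran from 0.04 to 37.52 FPKM. Leaving out any 1 of the 4 livers of week 4 ended the trend call of Moxd1, with changes between -1.98 and -1.43 and adjusted p-values between 0.0567 and 0.0829, as did a pseudocount of 0.1 (-3.31, adjusted p = 0.061). Cela1, an elastase gene, had 57.19, 67.91, 54.81 and 67.55 FPKM at week 4 and 14.46, 15.06, 12.78 and 43.62 at week 8. Gapdh-ps15 is a pseudogene on chromosome Y that shares sequence with Gapdh and its other copies, and its change without week 4 was 0.13 (adjusted p = 0.858). The trend call of Gapdh-ps15, a fall of 1.64 on the log2 scale, was also lost without any 1 of the livers of week 4 or without mouse HFD517, with changes between -1.54 and -1.30 and adjusted p-values between 0.0533 and 0.0843.

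Ly6d and Serpina7, the other 2 of the 10 largest rises, had most of their rise between week 4 and week 8. Ly6d, a surface protein gene of lymphocyte precursors and squamous epithelium, had 0.72, 0.65, 0.87 and 0.85 FPKM at week 4, 25.54, 21.38, 23.36 and 1.45 at week 8 and 23.18, 20.05, 46.97 and 37.71 at week 24, with 153.36 in mouse HFD517 of week 20. Serpina7, which encodes the thyroxine binding globulin of plasma, had 6.3, 11.35, 9.14 and 5.62 FPKM at week 4, 77.37, 63.79, 34.93 and 29.91 at week 8 and 92.73, 154.46, 92.84 and 40.82 at week 24. Serpina7 rose by 2.65 ± 0.49 (adjusted p = 0.0012) and Ly6d by 3.79 ± 0.72 (adjusted p = 0.00148). In CD liver Serpina7 also rose, by 2.77 (adjusted p = 0.000513), with 27.93, 46.1, 64.96 and 32.63 FPKM at week 24. Mouse HFD217 of week 8 had the lowest Ly6d, Cidec, Cidea and Cd36 of its week and the highest Cela1, and mouse HFD316 of week 12 had the lowest Ly6d, Cidec, Cidea and Cd36 and the highest Cela1 of its week.

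**Figure D5:**
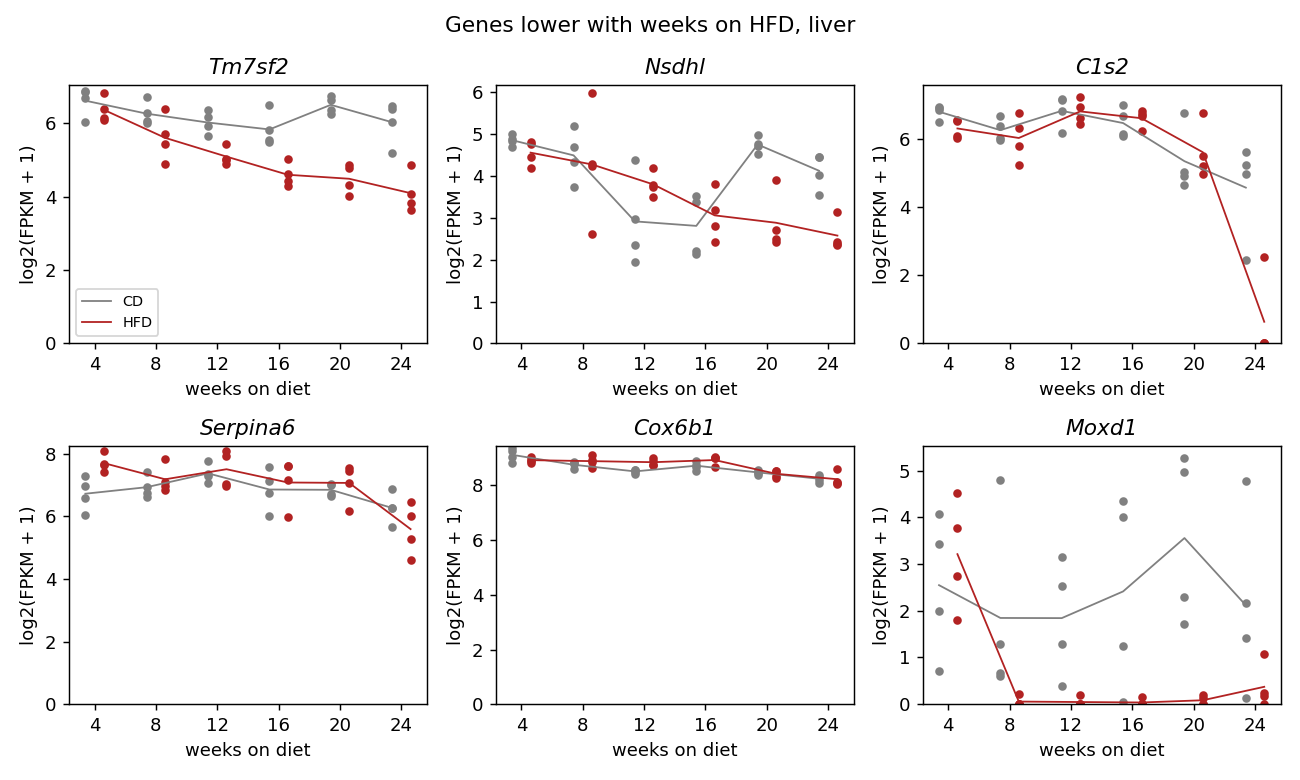
FPKM of 6 falling genes by week, on a log axis of FPKM + 1, in HFD (red) and CD (grey) liver, with 1 point per library and a line through the group means of log2(FPKM + 1). Tm7sf2 declines over the whole course on HFD, C1s2 drops at week 24, Moxd1 drops after week 4, and Cox6b1 falls in both diets.

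The change over time could be set against age-matched CD livers, which shared age and week with the HFD livers. In a fit of all 48 livers, 15 of 10879 genes had a slope that differed between HFD and CD (0.138%), 11 with a higher (0.101%) and 4 with a lower slope on HFD (0.0368%), and 631 had an unadjusted p under 0.05. The difference from week 4 to week 24 was not the same in the diets in 79 genes (0.726%), 54 higher (0.496%) and 25 lower on HFD (0.230%). Of the 1694 genes with a trend on HFD, 1575 were also tested on CD, where 758 had a trend in the same direction and none in the opposite one by limma at the same threshold. CD liver itself had a trend in 1543 genes (14.9%), 7.64% rising and 7.22% falling.

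The 5 highest slope differences were in Cidea, Uap1l1, Gpnmb, Sdcbp2 and Sptlc3. Cidea, described above, had at most 1.5 FPKM in the CD livers of weeks 4 to 20 and 0.03, 11.81, 0.93 and 1.81 at week 24, and its slope was higher on HFD by 4.27 over 20 weeks (adjusted p = 0.0119). With a pseudocount of 0.1 the difference in Cidea was 5.18 and did not pass (adjusted p = 0.259). Uap1l1, an enzyme gene akin to that of UDP-N-acetylglucosamine synthesis, had 2.38, 2.35, 2.35 and 2.98 FPKM at week 4, 11.16, 13.65, 12.22 and 12.44 at week 16 and 13.46, 11.77, 23.78 and 20.96 at week 24 on HFD. On CD Uap1l1 stayed between 1.3 and 4.83 FPKM in all 24 livers, and the slope difference was 1.84 (adjusted p = 0.00687). Sptlc3, a subunit of serine palmitoyltransferase, the first enzyme of sphingolipid synthesis, was listed at 0 in all 4 HFD livers of week 4, was at most 0.41 FPKM at weeks 8 and 12, and had 2.38, 0.54, 0.32 and 0.13 at week 16, 0.14, 0.88, 1.02 and 1.56 at week 20 and 2.98, 1.2, 2.3 and 0.91 at week 24. On CD no liver had over 0.23 FPKM of Sptlc3, and the slope difference was 1.38 (adjusted p = 0.00275). Gpnmb differed by 1.78 (adjusted p = 0.0284) with at most 0.45 FPKM on CD, and Sdcbp2, a syntenin gene, by 1.45 (adjusted p = 0.0367) with at most 0.3 FPKM on CD and 1.95, 1.12, 2.91 and 2.46 at week 24 on HFD. Sptlc3, Gpnmb and Sdcbp2 stayed below 1 FPKM in all CD livers, so they passed the filter through the HFD livers alone. Cidea reached 1 FPKM in fewer than 4 CD livers, so it too passed only because of the HFD livers. The call of Gpnmb was lost without any 1 of the 4 HFD livers of week 4 or without HFD616, with differences between 1.74 and 1.76 and adjusted p-values between 0.0582 and 0.0722, and with a pseudocount of 0.1 (3.24, adjusted p = 0.0866). The call of Sdcbp2 was lost without a filter (adjusted p = 0.0569) and on leaving out any of 9 single HFD livers, with differences between 1.40 and 1.45 and adjusted p-values between 0.0514 and 0.0891. The others with a higher slope on HFD, chosen after their values were seen, were Smox, Ntrk2, Slc35f2, Psat1, Tuba8 and Chil1.

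The 4 lower slopes were in Tm7sf2, Dgcr6, Cd163 and Plxnc1. Tm7sf2 had 88.33, 65.09, 35.71 and 83.38 FPKM on CD at week 24, all above the 4 HFD livers of that week, and its slope differed by -1.83 (adjusted p = 0.0119). Cd163, the haemoglobin scavenger receptor of resident macrophages, had 1.6, 2.3, 1.5 and 2.25 FPKM at week 4 and 0.11, 1.02, 1.37 and 0.83 at week 24 on HFD, and 0.59, 1.41, 1.26 and 0.72 at week 4 and 3.57, 3.55, 2.56 and 5.57 at week 24 on CD. The slopes of Cd163 ran apart by -1.58 (adjusted p = 0.00341), of which the rise on CD (1.07, adjusted p = 0.0014) was the part that passed alone. The difference in Dgcr6 came from CD liver, where it had 3.77, 3.98, 5.88 and 5.66 FPKM at week 4 and between 17.1 and 32.17 from week 8 on, against 17.13 to 38.68 in the 24 HFD livers. Plxnc1, a semaphorin receptor gene, differed by -0.83 (adjusted p = 0.048), and its HFD course alone had no trend (adjusted p = 0.111). The call of Plxnc1 was lost with a pseudocount of 0.1 (adjusted p = 0.0717), without a filter (adjusted p = 0.063) and without any of 16 single HFD livers, with differences between -0.84 and -0.79 and adjusted p-values between 0.0514 and 0.138. That of Dgcr6 was lost with a pseudocount of 0.1 (adjusted p = 0.0525), without a filter (0.0565), with at least 5 FPKM (0.0784) and without any of 5 single HFD livers, with differences between -1.85 and -1.73 and adjusted p-values between 0.0554 and 0.0813. Without week 4 in both diets, none of 10840 genes had a slope difference by limma, 702 had an unadjusted p under 0.05, and the smallest adjusted p was 0.18.

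Among the genes whose change from week 4 to week 24 differed between the diets, 4 of the 16 macrophage genes (Cd163, Mrc1, Timd4 and Vsig4) and 2 of the 8 endothelial genes (Clec4g and Fcgr2b) changed less upwards or more downwards on HFD. Mrc1, the mannose receptor, had 3.78, 3.96, 4.15 and 4.36 FPKM at week 4 and 2.63, 1.89, 3.32 and 1.85 at week 24 on HFD, and 1.04, 1.51, 1.95 and 1.29 and then 3.83, 2.72, 3.76 and 4.27 on CD, a difference of -1.51 (adjusted p = 0.000979). The order of the diets was thus turned between the end points for Mrc1, with no overlap at week 4. Clec4g, a lectin of sinusoidal endothelium, fell on HFD from 40.87, 28.16, 38.1 and 31.32 FPKM at week 4 to 12.06, 12.21, 16.88 and 20.11 at week 24 and differed from CD by -1.65 (adjusted p = 0.0356). The summed FPKM of the 8 endothelial markers was 71.16 to 95.87 at week 4 and 42.69 to 62.34 at week 24 on HFD, and 28.25 to 81.99 and 56.42 to 85.33 on CD. Upwards, Cidea differed by 4.53 and Cidec by 3.17 (adjusted p = 0.0388) among the fat uptake genes, together with Mogat1, which makes diacylglycerol, by 1.70 (adjusted p = 0.0169), and Fabp1 differed downwards, by -1.58 (adjusted p = 0.0356). Without mouse HFD616 0.387% of genes differed in place of 0.726%, without HFD113 0.414% and without HFD114 0.432%.

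The other lists are given by their counts, against 15.8% of all genes with a trend. Of 18 interferon-stimulated genes none passed by limma and 3 had an unadjusted p under 0.05, and of 17 clock genes none passed and 2 had an unadjusted p under 0.05. Of 13 proliferation genes, Tk1 fell by 0.81 (adjusted p = 0.0358). Of 23 male-biased genes under growth hormone 5 fell (Mup3, Keg1, Ugt2b1, Cyp2d9 and Ghr), with Mup3 at -1.20 (adjusted p = 0.00359), and its reads can be shared with the other Mup genes. Of 24 genes of drug and oxidant defence 3 rose and 4 fell, the largest being the cytochrome Cyp2c29, which fell by 1.90 ± 0.37 (adjusted p = 0.0017) from 322.01, 375.46, 439.68 and 331.12 FPKM at week 4 to 85.18, 191, 87.92 and 104.42 at week 24, without overlap. Of 21 bile acid genes, Abcg8 and Akr1d1 fell. Of 33 ribosomal protein genes 1 had a trend (Rpl3, upwards), whereas 19 fell from week 4 to week 8 and 13 rose and 1 fell from week 16 to week 20. Among all genes 10.4% fell at the first of these steps, and 6.13% rose and 4.33% fell at the second. At the end points 10.2% of all genes were higher and 9.63% lower. At week 24 against week 4, 11 ribosomal protein genes were lower and Rpl3 was higher, and without mouse HFD112 there were 6 such calls and without HFD611 or HFD616 there were 7. The 5 red blood cell genes summed to between 65.64 and 4771 FPKM per liver, with a median change of -1.48 and no call for a trend by limma (1 at an unadjusted p under 0.05). Of 15 immediate early genes, Ier3 rose, of 20 hepatokine genes 2 rose and 1 fell, and of 13 metallothionein and iron genes 1 rose and 1 fell.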

How the data were processed

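Liver RNA of 48 mice (24 HFD, 24 CD) was poly(A)-selected and sequenced on a BGISEQ-500, per the labels, with RIN above 8. The authors deposited FPKM per gene with 2 decimals. The submitters' processing notes name HISAT2 2.0.4, Bowtie2 2.2.5, RSEM 1.1.12, DESeq2 and GRCm38.p5, without roles. The table also holds the authors' log2 ratios, p-values and q-values of HFD against CD, which were not used. FPKM divides by a library total, so a few abundant genes shift all others, and the depth is unknown.

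Of 21990 genes, 20155 had values. Genes that reached 1 FPKM in 4 or more libraries were tested with limma 3.58.1 (R 4.3.3) on log2(FPKM + 1), with trend and robust moderation and Benjamini-Hochberg adjustment over all genes tested. Fits were a line over weeks, the 6 weeks as groups, the F test of the groups against the line, and both diets together. The fits were tested on simulated data. Values and figures used Python 3.11.15, pandas 2.3.3, numpy 2.4.6 and matplotlib 3.10.9. Promoters came from RefSeq.

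Genes named are the 10 highest and 10 lowest week 24 minus week 4 differences among genes called by both tests, the 5 highest and 5 lowest slope differences between the diets among genes called, the 5 smallest p for departure from a line, and listed genes, by smallest p or as defining members. Members and lists were chosen with earlier results of these data known. Alternatives were another pseudocount, filters, scalings, ranks, and leaving out weeks or libraries. Results of some listed genes are not reported here.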

Additional observations from a re-analysis of the deposited data

Results flagged for a closer look

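In 192 groups of 4 HFD livers, formed by the named genes and the weeks, 19 had a highest or lowest liver whose gap to the next exceeded the 95% critical value of Dixon's test, where chance flags about 1 in 20 groups. Mouse HFD217 of week 8 gave 7 of these, with the lowest Apcs (37.83 FPKM), Cd36 (32.77), Cidec (3.66), Ly6d (1.45) and Uap1l1 (2.2) and the highest Cela1 (43.62) and Moxd1 (0.16) of its week. Mouse HFD316 of week 12 gave 4, with the lowest Dgcr6 (23.87 FPKM) and Tmem238 (9.42) and the highest Gapdh-ps15 (6.3) and Moxd1 (0.14). Mouse HFD416 of week 16 had the lowest Ly6d (17.62 FPKM) and, alone in its week, a value above 0 for Gm4184 (1.7). Mouse HFD614 of week 24 had the highest C1s2 (4.81 FPKM) and Nsdhl (7.79). The others were Cd36 in HFD114 of week 4 (7.17 FPKM, highest), Uap1l1 in HFD118 of week 4 (2.98, highest), Rpl37rt in HFD211 of week 8 (2.37, lowest) and Moxd1 in HFD411 of week 16 (0.11, highest).

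The slope over weeks differed between HFD and CD liver in 15 genes and the difference between week 24 and week 4 in 79, by limma. Among the genes named, the slope on HFD was higher over 20 weeks by 4.27 for Cidea, 1.84 for Uap1l1, 1.78 for Gpnmb, 1.45 for Sdcbp2 and 1.38 for Sptlc3. It differed by -1.83 for Tm7sf2, -1.82 for Dgcr6, -1.58 for Cd163 and -0.83 for Plxnc1.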

How the results depend on the processing

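No paired analysis was possible because the replicate number is the mouse number, each mouse was killed at 1 week, and no 2 of the liver groups compared share a number. Islet and liver libraries of a week do share mouse numbers, but the tissues were not compared. The 15 slope differences between the diets became 8 with a pseudocount of 0.1, 3 with at least 5 FPKM and 0 without week 4 in both diets (limma, 702 at an unadjusted p under 0.05). The step from week 8 to 12 changed 25 genes without a filter, 10 with at least 5 FPKM and 26 after quantile normalization, and week 20 to 24 changed 17, 17 and 85, and 46 after median-ratio scaling. Week 16 to 20 changed 1694 (922 higher, 772 lower) after median-ratio scaling and 2090 (1029 higher, 1061 lower) after quantile normalization, against 657 higher and 464 lower in the values reported, and week 12 to 16 changed 206 after quantile normalization. The share of genes whose change between the end points differed between the diets, 0.726%, became 1.16% after median-ratio scaling, 1.31% after quantile normalization and 0.385% of the larger number of genes tested without a filter. With week 8 as the start, chosen after seeing the data, 1098 genes differed at week 24. The cause of these shifts was not tested. Directions turned for Cd36, Gapdh-ps15 and Moxd1. Without week 4 the trend was -0.22 for Cd36 and 0.13 for Gapdh-ps15, and with week 8 as the start the difference was -0.30 for Cd36, 0.32 for Moxd1 and 0.41 for Gapdh-ps15.

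With 1 liver left out, the counts ran from 1229 to 2112 for the trend, 1302 to 3007 for week 24 against week 4, 1425 to 2937, 9 to 22, 65 to 258, 397 to 1529 and 3 to 62 for the 5 steps in order, 2094 to 3384 for departure from a line, 3669 to 5083 for any difference, 7 to 26 for the slope difference and, as a percent of genes tested, 0.387 to 1.05 for the end points between the diets. Among the 20 genes of the largest rises and falls, the trend call was lost without week 4 for Cidec (0.93), Ly6d (2.26), Serpina7 (1.04), Plin4 (0.72), Tff3 (-0.49) and Cela1 (-0.71) and without week 24 for C1s2 (-0.41), Hamp2 (-3.56), Nat6 (-1.04) and Serpina6 (-0.69), where Hamp2 was at -4.10 with all weeks and its adjusted p became 0.1. On ranks, the genes with a trend over weeks in HFD liver numbered 1290, and the calls lost were those of Cidec (adjusted p = 0.0747), Cd36 (0.332), C1s2 (0.124), Tff3 (0.104), Moxd1 (0.432), Gapdh-ps15 (0.305) and Cela1 (0.06). The members called fell on ranks from 9 to 3 for ER stress, 10 to 4 for fat uptake, 17 to 11 for the respiratory chain, 7 to 4 for lipogenesis and 2 to 0 for fatty acid oxidation. The end point call of Saa1 was lost without mouse HFD114 or HFD616 and that of Hamp2 without HFD114. A week with 1 collection and unknown depth limits what the course can show.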

Other observations

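The 9 genes that changed from week 20 to week 24 on HFD were, beside C1s2 and Nat6, chosen after their values were seen: Ecscr (-0.74), Egfl7 (-0.76) and Rps29 (-0.53) fell and Cpox (0.65), Gm10698 (0.98), Tmem30b (0.45) and Tymp (1.02) rose on the log2 scale.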
